A study of Mus musculus with 4 samples.

Results

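A set of 10 genes of heme breakdown and iron handling was followed in epididymal adipose tissue of obese mice: Hmox1, Blvrb, Slc40a1, Tfrc, Tfr2, Fth1, Ftl1, Slc11a1, Slc48a1 and Cd163. They are 10 of the 24421 gene symbols measured. The set was chosen from the measured values, because Hmox1, Slc40a1 and Tfrc were sharply lower in 1 group. The levels of the members below therefore describe these libraries. Where a test threshold is named for a member, nothing is read from it. All libraries came from wild-type male C57BL/6J mice. Ctrl mice began a high-fat diet (HFD) at 10 weeks of age and remained on it for 14 weeks. WC1 (weight cycling) mice began HFD at 8 weeks of age, received it for 8 weeks, were switched to standard diet for 2 weeks and returned to HFD for 6 weeks. Both groups therefore had 14 weeks of HFD in total and reached 24 weeks of age. Each group had 2 RNA-seq libraries, holding between 61465029 and 90965297 reads, and the labels do not say whether these came from separate animals, so p-values measure only the spread between these libraries.

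Heme released from hemoglobin and other proteins is opened by heme oxygenase, which yields iron, carbon monoxide and biliverdin. Biliverdin reductases turn biliverdin into bilirubin, in adults mainly the one encoded by Blvra, which lies outside the set. The iron is either stored in ferritin or leaves the cell through ferroportin. Cells take up new iron mainly as transferrin through transferrin receptors. In adipose tissue, macrophages are known to recycle heme iron and to hold much of the tissue's ferritin. Part of this system is controlled after transcription: iron regulatory proteins bind short hairpins, the iron-responsive elements (IREs), in untranslated regions (UTRs), where a 5′ hairpin restrains translation and 3′ hairpins protect the mRNA from decay.

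The IREs of the members are shown because they mark which of these mRNAs belong to that common control. The pattern searched was a C, 5 bases, the letters CAGTGN and 5 more bases, on the transcribed strand, with the 5 bases on each side of the loop able to pair (G-T pairs allowed), in the UTRs of coding transcripts (GENCODE M21, GRCm38, the same assembly as mm10). It matched 155 of 21875 genes (0.709%), 28 of them in the 5′ UTR. Among the members 4 of 10 matched: Fth1, Ftl1 and Slc40a1 in the 5′ UTR and Tfrc 4 times in the 3′ UTR. The loop is in capitals, and the elements are written 5′ to 3′.
Fth1 5′ UTR, chr19:9982732-9982760, forward strand: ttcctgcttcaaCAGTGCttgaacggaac
Ftl1 5′ UTR, chr7:45459779-45459807, reverse strand: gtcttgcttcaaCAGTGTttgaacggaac
Slc40a1 5′ UTR, chr1:45925465-45925493, reverse strand: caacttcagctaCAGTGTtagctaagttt
Tfrc 3′ UTR, chr16:32631219-32631247, forward strand: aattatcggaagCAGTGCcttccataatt
Tfrc 3′ UTR, chr16:32631598-32631626, forward strand: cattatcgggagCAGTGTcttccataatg
Tfrc 3′ UTR, chr16:32631663-32631691, forward strand: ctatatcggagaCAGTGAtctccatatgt
Tfrc 3′ UTR, chr16:32631710-32631738, forward strand: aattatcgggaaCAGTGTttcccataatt
The elements of Fth1 and Ftl1 were identical at 26 of 29 bases. A match describes the letters only, and RNA levels do not show how much protein was made.

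Of these genes 8 were lower in both WC1 libraries than in both Ctrl libraries, and Tfr2 and Cd163 were higher. The log2 difference, WC1 minus Ctrl, ran from -2.51 for Slc40a1 to 1.53 for Tfr2, with a median of -1.12 beside -0.02 over the 14106 genes tested. All 10 members passed the filter on low values. The libraries of the groups did not overlap in 10 of 10 members, where 69.3% of all tested genes did not overlap, and 8 of 10 were past the limma threshold of an adjusted p under 0.05, where 10.2% of all tested genes were called higher and 7.71% lower. Nothing is read from these counts, since the same contrast chose the genes.

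Hmox1, the inducible heme oxygenase (chr8:75093621-75100589, forward strand), stood at 937 and 965 CPM, that is, reads scaled to a common library size, in the Ctrl libraries. It stood at 217 and 183 CPM in the WC1 libraries. Every WC1 library was far below the Ctrl libraries, and the means of 951 ± 19.8 and 199.96 ± 24.5 CPM (SD, n = 2) made a 4.76-fold lower level (log2 difference -2.25 ± 0.11, SE). On the length-corrected TPM scale, Hmox1 ranked 126 and 117 among all genes in Ctrl and 538 and 650 in WC1. By size of the log2 difference it was the 27th most lowered of the genes tested. Blvrb, the NADPH-dependent biliverdin reductase B (chr7:27447978-27466144, forward strand), measured 230 and 219 CPM in Ctrl and 79.2 and 63.9 CPM in WC1. It was 3.14-fold lower (log2 difference -1.64 ± 0.12, SE), again with a wide gap between the groups.

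Slc48a1 (HRG1; chr15:97778520-97792692, forward strand) carries heme out of the phagolysosome to the cytosol, where Hmox1 acts on it. Its levels of 632 and 627 CPM in Ctrl and 490 and 482 CPM in WC1 were close within each group and apart between them. The log2 difference of -0.37 ± 0.085 (SE), 1.30-fold lower, was the smallest among the lowered members, and on TPM it was -0.23. Cd163 (chr6:124304656-124330527, forward strand), the macrophage receptor for the haptoglobin-hemoglobin complex, had 23.6 and 26.3 CPM in Ctrl and 29.5 and 35.4 CPM in WC1. It was 1.30-fold higher (log2 difference 0.36 ± 0.12, SE), and it was not past the limma threshold.

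**Figure D1:**
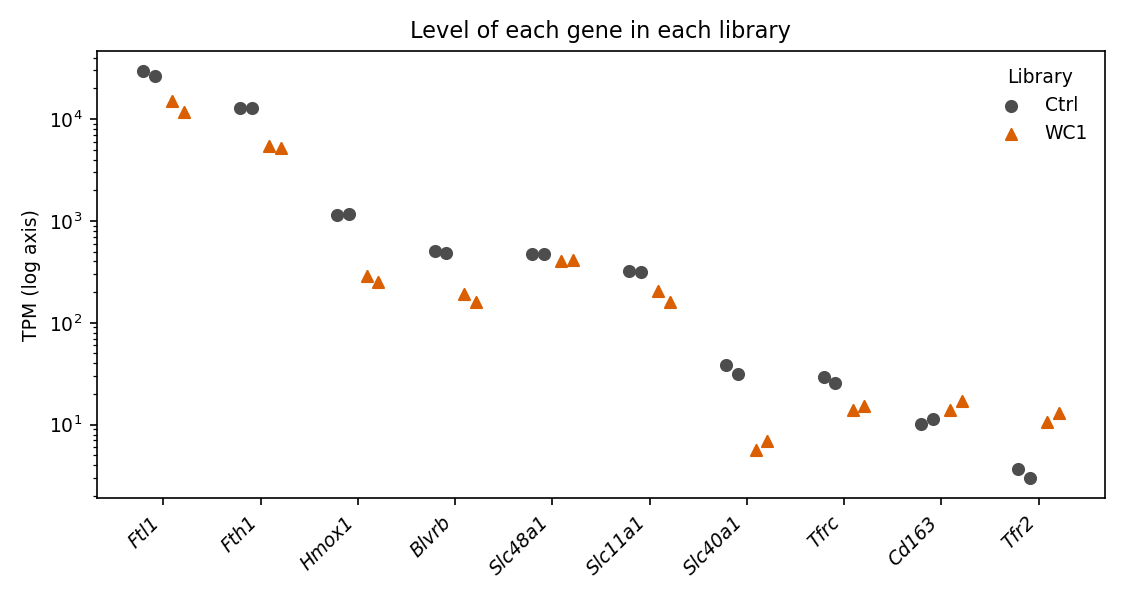
Level of each of the 10 genes in each library, in TPM on a log axis, with 1 point per library (grey circles Ctrl, orange triangles WC1) and the genes in order of their Ctrl level. The groups do not overlap for any gene: 8 sit lower in WC1, and Cd163 and Tfr2 sit higher.

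Slc40a1, ferroportin (chr1:45908068-45926523, reverse strand), the only known iron exporter of mammalian cells and a carrier of 1 of the hairpins printed above, showed the largest difference among the members. Ctrl libraries had 68.6 and 54.9 CPM and WC1 libraries 9.18 and 10.8 CPM. The WC1 levels were far under the lower Ctrl level, with means of 61.7 ± 9.74 and 9.98 ± 1.14 CPM (SD, n = 2), a 6.18-fold lower level (log2 difference -2.51 ± 0.14, SE). It ranked 20th from the most lowered gene of all those tested. In TPM, Ctrl libraries had 29.3 and 37.7 times as much Hmox1 as Slc40a1 and WC1 libraries 50.8 and 36.4 times, so the groups overlapped in that ratio.

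The transferrin receptors differed in opposite directions. Tfrc (chr16:32608920-32632794, forward strand), the general receptor for iron-loaded transferrin, had 75.9 and 65.0 CPM in Ctrl and 33.0 and 35.0 CPM in WC1, a 2.07-fold lower level (log2 difference -1.03 ± 0.098, SE). Tfr2 (chr5:137569840-137587481, forward strand), known mainly as an iron sensor of liver and red cell precursors, had 6.87 and 5.56 CPM in Ctrl and 18.1 and 21.4 CPM in WC1. It was 3.18-fold higher (log2 difference 1.53 ± 0.14, SE), the 41st most raised of the genes tested. The ratio of Tfrc to Tfr2 in TPM went from 8.07 and 8.53 in Ctrl to 1.32 and 1.19 in WC1, so both receptor mRNAs reached comparable levels there.

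The ferritin subunits were the most abundant members. Fth1, the heavy chain with ferroxidase activity (chr19:9980598-9985098, forward strand), measured 6381 and 6314 CPM in Ctrl and 2445 and 2291 CPM in WC1. It was 2.68-fold lower (log2 difference -1.42 ± 0.20, SE), with little spread within either group. Ftl1, the light chain that helps to form the iron core (chr7:45457944-45459884, reverse strand), measured 15002 and 13249 CPM in Ctrl and 6949 and 5314 CPM in WC1. It was 2.30-fold lower (log2 difference -1.21 ± 0.33, SE), and it was not past the limma threshold. By TPM, Ftl1 was the most abundant mRNA in both Ctrl libraries and the 2nd in both WC1 libraries. Fth1 went from rank 3 in both Ctrl libraries to ranks 11 and 10. Together they made up 4.25% and 3.93% of all TPM in Ctrl and 2.03% and 1.70% in WC1.

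The balance of the subunits did not separate the groups: the ratio of Ftl1 to Fth1 in TPM was 2.28 and 2.04 in Ctrl and 2.76 and 2.25 in WC1. Near-identical copies make the split of ferritin reads uncertain. Ftl1-ps1 on chromosome 13 carries the same 29 bases as the Ftl1 hairpin, and the sources used here do not say how reads shared with such copies were counted.

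The product of Slc11a1 (NRAMP1, chr1:74375195-74386062, forward strand) is known as an iron transporter of the phagosome membrane in macrophages and neutrophils. Whether that protein was active in these mice was not measured. Slc11a1 had 392 and 378 CPM in Ctrl and 229 and 171 CPM in WC1. It was 1.93-fold lower (log2 difference -0.96 ± 0.15, SE). The WC1 libraries differed from each other more than the Ctrl libraries, with library 2 lower.

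**Figure D2:**
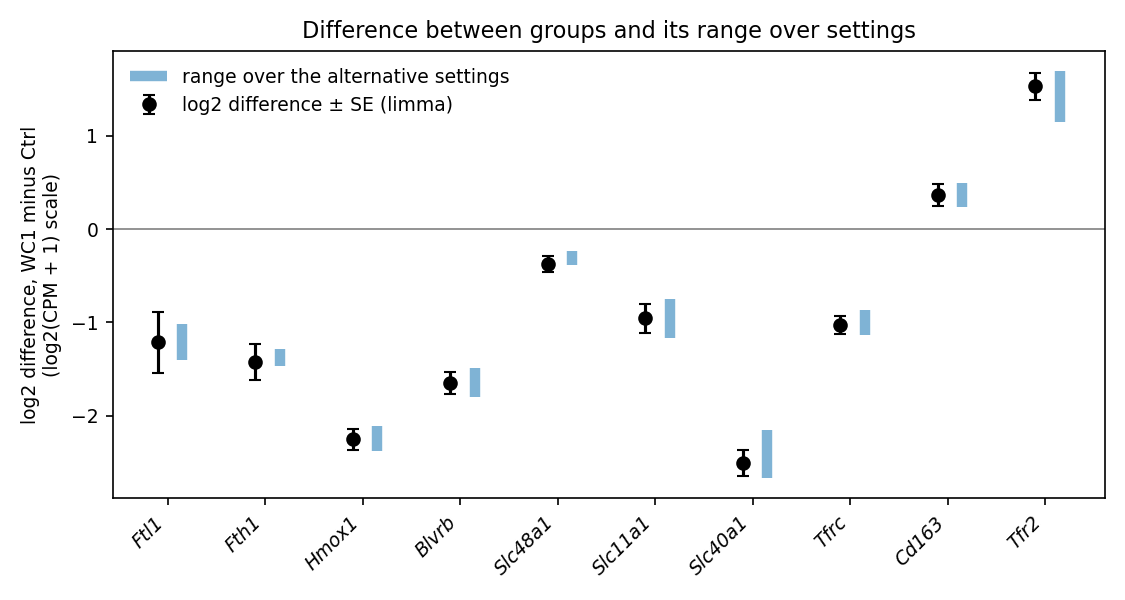
Log2 difference of each member, WC1 minus Ctrl, on the log2(CPM + 1) scale, with the limma estimate and its SE in black and the range over the alternative settings as a blue bar. Slc40a1 at -2.51 and Hmox1 at -2.25 lie lowest and Tfr2 at 1.53 highest, and no bar crosses 0.

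In order of TPM, Ctrl tissue held Ftl1, Fth1, Hmox1, Blvrb, Slc48a1, Slc11a1, Slc40a1, Tfrc, Cd163 and Tfr2. The order changed in WC1. Slc48a1, at 404 and 410 TPM, was above Hmox1, at 287 and 249 TPM. Blvrb (191 and 159 TPM) and Slc11a1 (207 and 159 TPM) were not separable beyond their spread. Tfrc (14.0 and 15.3 TPM) and Cd163 (13.9 and 17.2 TPM) overlapped, and Slc40a1 came last with 5.66 and 6.86 TPM.

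Hmox1, Blvrb and Slc11a1 were then set beside a related gene outside the set. The ratio of Hmox1 to Hmox2, the constitutive heme oxygenase, was 7.22 and 7.61 in Ctrl and 1.89 and 1.79 in WC1. Hmox2 itself went from 101 to 85.3 mean CPM and was not called (log2 difference -0.24, limma adjusted p = 0.11). The ratio of Blvrb to Blvra, the biliverdin reductase of adult bilirubin formation, was 3.11 and 3.21 in Ctrl and 1.26 and 1.19 in WC1. Blvra went from 96.4 to 78.8 mean CPM and was not called either (log2 difference -0.29, limma adjusted p = 0.11). With the replicate block Blvra was called lower (limma adjusted p = 0.048). Without WC1 1 the log2 differences were -0.33 for Hmox2 and -0.40 for Blvra, and without WC1 2 they were -0.15 and -0.18. Since Hmox1 and Blvrb belong to the chosen set and Hmox2 and Blvra do not, nothing is read from the larger difference of the members. Slc11a1 stood at 9.17 and 9.44 times the TPM of Slc11a2 (DMT1, the transporter of ferrous iron from gut lumen and endosome) in Ctrl and at 8.04 and 6.12 times in WC1. Slc11a2 fell by 0.47 on the log2 scale (SE 0.072, limma adjusted p = 0.023), from 61.6 and 57.9 CPM in Ctrl to 43.7 and 42.1 CPM in WC1.

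**Figure D3:**
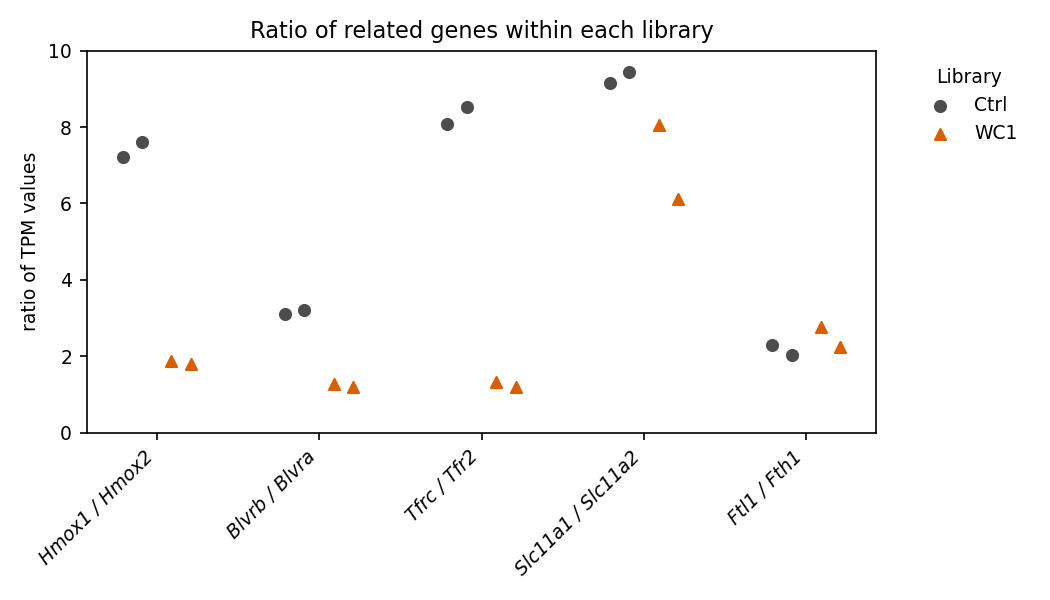
Ratio of the TPM values of related genes within each library, on a linear axis from 0, with 1 point per library (grey circles Ctrl, orange triangles WC1). Hmox1 to Hmox2, Blvrb to Blvra, Tfrc to Tfr2 and Slc11a1 to Slc11a2 are lower in both WC1 libraries, whereas Ftl1 to Fth1 overlaps between the groups.

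Markers of macrophages moved in the same direction. All 14 macrophage markers were detected and none was at 0, 7 of 14 fell in limma, and 13 of 14 were lower in both WC1 libraries than in both Ctrl libraries, where 7.71% of all tested genes fell and 69.3% did not overlap in either direction. Their median log2 difference was -0.68, from -1.25 for Lyz2 to -0.22 for Fcgr1, and their summed level was 20016 and 18440 TPM in Ctrl and 12525 and 9166 TPM in WC1. Adipocyte markers, all present as the labelled tissue requires, summed to 20660 and 22495 TPM in Ctrl and to 38218 and 49319 TPM in WC1. In limma 8 of these 10 rose, where 10.2% of all tested genes did. In whole tissue, fewer cells of a type and less RNA per cell cannot be told apart, and the part of these shifts in the members' levels was not tested.

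Relative to the summed macrophage markers of the same library, some members were still lower in WC1, some overlapped and some were higher. Hmox1 was lower, with 5.68% and 6.41% of the marker sum in Ctrl and 2.29% and 2.72% in WC1. Slc40a1 was lower as well, with 0.194% and 0.170% in Ctrl and 0.0452% and 0.0748% in WC1. Blvrb, Fth1 and Ftl1 were 1.59-fold, 1.34-fold and 1.17-fold lower on this scale without overlap. By contrast, Slc11a1 lay between 1.62% and 1.74% in every library and Tfrc between 0.112% and 0.167%, and the groups overlapped in both. Slc48a1 was 1.55-fold higher in WC1 on this scale, Cd163 2.65-fold higher and Tfr2 6.53-fold higher. The sum gives most weight to abundant markers such as Lyz2, which was also the most lowered of the 14 (log2 difference -1.25). Between the groups the log2 ratio of the mean sums was -0.83, beside a median of -0.68 over the single markers in CPM. Small shifts on this scale therefore depend on which markers are summed, and no other sum was tried. The ratio is a description within each library and does not show which cells held the RNA.

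**Figure D4:**
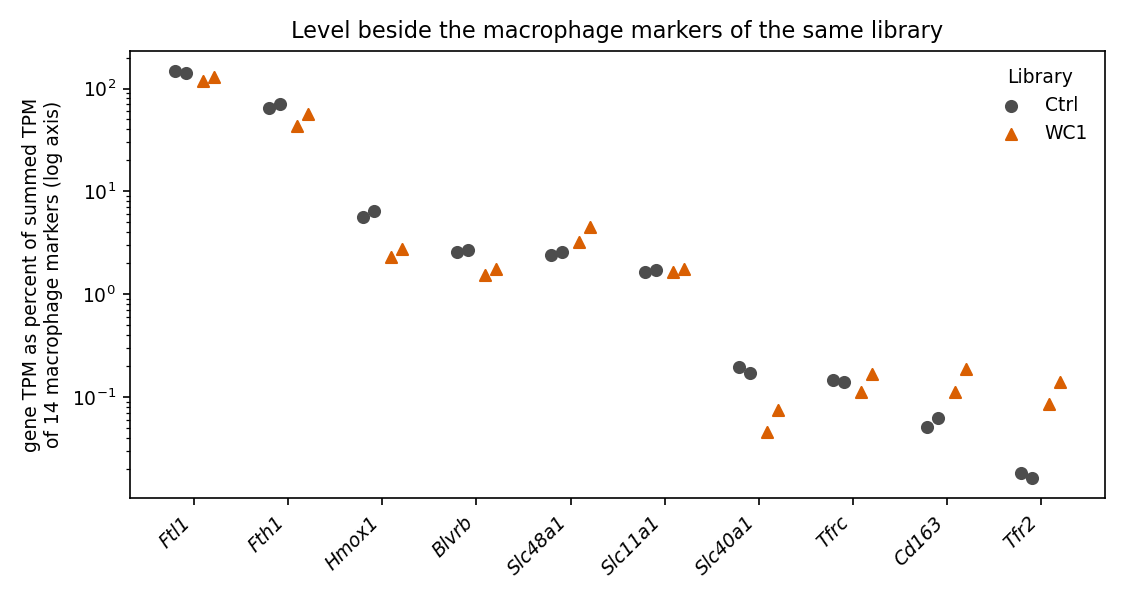
TPM of each member as a percentage of the summed TPM of 14 macrophage markers in the same library, on a log axis, with 1 point per library (grey circles Ctrl, orange triangles WC1). Hmox1, Blvrb, Slc40a1, Fth1 and Ftl1 are lower in WC1, Slc11a1 and Tfrc overlap, and Slc48a1, Cd163 and Tfr2 are higher.

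Other cell types that handle heme or iron were checked in the same way. Of the erythroid markers, globin mRNA was present, and the summed level of the list was 684 and 1101 TPM in Ctrl and 1582 and 1760 TPM in WC1. Single globin rows varied widely, with Hba-a2 at 179, 188, 0.164 and 231 CPM in Ctrl 1, Ctrl 2, WC1 1 and WC1 2. In the same order Hba-a1 had 2.49, 3.42, 241 and 51.8 CPM. Hbb-bs had 0.0146, 147, 184 and 202 CPM, and Hbb-bt 22.2, 0, 25.4 and 0 CPM. How reads shared by such related rows were counted is not known, so single globin rows are uncertain. The cause was not tested. The red cell precursor genes Slc4a1, Klf1, Ermap and Epb42 (listed as Epb4.2) were all under the filter, the highest at 0.393 CPM. Of 7 neutrophil markers only S100a8 was abundant enough to test, and it rose, while Ngp was at 0 in every library. Without overlap between the groups, 2 of the 7 were higher in WC1 and 2 lower, where 69.3% of all tested genes did not overlap in either direction. Among the lower was S100a9, the partner of S100a8, at 0.658 and 0.356 CPM in Ctrl and 0.0983 and 0.159 CPM in WC1. Endothelial markers summed to 171 and 200 TPM in Ctrl and 383 and 511 TPM in WC1. In limma 4 of these 5 rose, where 10.2% of all tested genes did. Fibroblast markers summed to 3146 and 3218 TPM in Ctrl and 2809 and 2415 TPM in WC1. In limma 3 of these 5 fell, where 7.71% of all tested genes did. The part of these cell types in the members' levels was not tested.

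The other genes of the pathway were tested to see whether the difference extended beyond the members. Of 83 listed genes, 78 passed the filter. In limma 7 rose, which is 8.97% of them beside 10.2% of all tested genes, and 6 fell, which is 7.69% beside 7.71%. The median log2 difference of the 78 genes was -0.02, close to that of all genes, and 65 were not called. The shares of called genes were therefore near the background. The split depended on scaling, with 11 higher and 2 lower on TPM and 9 higher and 3 lower on plain CPM. Over all tested genes the split moved the same way. It went from 1443 higher and 1088 lower to 2054 and 583 on TPM and to 1707 and 833 on plain CPM. The counts also changed when a library was left out, for these genes as for all tested genes, and no call held when either Ctrl library was left out. Without Ctrl 1 or without Ctrl 2, limma called 0 of the 78, with 13 at an unadjusted p under 0.05 in each case, where 2621 and 3115 of all 14106 genes were.

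**Figure D5:**
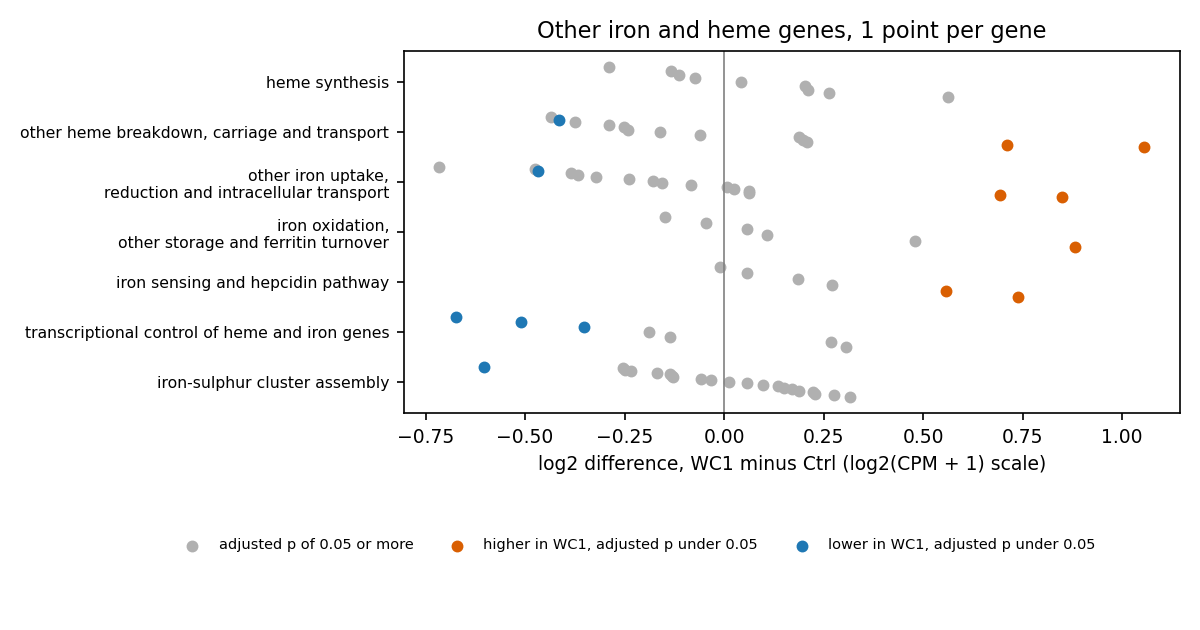
Log2 difference, WC1 minus Ctrl, on the log2(CPM + 1) scale, of the 78 tested iron and heme genes outside the set, 1 point per gene and 1 row per list. At a limma adjusted p under 0.05, 7 genes were called higher (orange) and 6 lower (blue), and the other 65 are grey.

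Carriers of heme, hemoglobin and iron in plasma were among the risen genes. Tf, transferrin (listed as Trf), rose from 1014 and 1004 CPM in Ctrl to 1602 and 1660 CPM in WC1 (log2 difference 0.69 ± 0.12, SE, limma adjusted p = 0.026). Hp, haptoglobin, rose from 2553 and 2145 CPM to 4183 and 5666 CPM (log2 difference 1.06 ± 0.24, SE, limma adjusted p = 0.045), and is named after its values were seen. The difference of Cd163, a receptor for haptoglobin-bound hemoglobin, was smaller. Hpx, the heme-binding hemopexin, rose from a low 2.79 and 2.60 CPM to 5.54 and 4.59 CPM (log2 difference 0.71 ± 0.13, SE, limma adjusted p = 0.030). Lrp1, the hemopexin receptor, was not called (log2 difference -0.37, limma adjusted p = 0.20), though it had -0.55 without WC1 1, where it was called lower (limma adjusted p = 0.011), and -0.20 without WC1 2. Not called either was Lcn2, which binds iron-loaded siderophores (log2 difference -0.08, limma adjusted p = 0.81), whose sign turned on TPM.

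Heme synthesis showed no gene called by limma among 9 tested, where 10.2% of all tested genes were called higher and 7.71% lower. Of the 9, 3 had an unadjusted limma p under 0.05, as had 5329 of all 14106 tested genes. Alas1, the first and rate-limiting enzyme outside red cells, had a log2 difference of -0.29 (limma adjusted p = 0.054). Fech, which inserts the iron, had 0.26 (limma adjusted p = 0.084). Alas2, the erythroid form, had 0.56 (limma adjusted p = 0.069). Of 14 alternatives, 3 called Alas1, 3 called Alas2 and 2 called Fech.

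Among the genes of iron reduction and oxidation, Steap4 and Heph were the ones called, and both rose. Steap4, a metalloreductase of adipocytes, went from 178 and 199.8 CPM in Ctrl to 280 and 414 CPM in WC1 (log2 difference 0.85 ± 0.20, SE, limma adjusted p = 0.046). The related reductases, named after their values were seen, were not called and had negative log2 differences, Steap1 of -0.48 (limma adjusted p = 0.12), Steap2 of -0.37 (limma adjusted p = 0.086), Steap3 of -0.16 (limma adjusted p = 0.27) and Cybrd1 of -0.24 (limma adjusted p = 0.67). Heph, hephaestin, a ferroxidase that works with ferroportin, went from 32.6 and 32.4 CPM to 53.8 and 68.5 CPM (log2 difference 0.88 ± 0.13, SE, limma adjusted p = 0.020). Heph thus lay in the opposite direction to Slc40a1. The related ferroxidases Cp, ceruloplasmin, at 0.11 (limma adjusted p = 0.36) and Hephl1 at 0.48 (limma adjusted p = 0.058) were not called. Hephl1 was, however, called higher in DESeq2, on TPM, on plain CPM and with the replicate block. Ncoa4, the receptor that delivers ferritin to autophagy, had a log2 difference of 0.06 (limma adjusted p = 0.58). Ftmt, the mitochondrial ferritin, was at 0 in every library.

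The mRNAs of the proteins that read iron were not called in limma as reported. Aco1 (IRP1) had a log2 difference of 0.27 (limma adjusted p = 0.056), Ireb2 (IRP2) of -0.01 (limma adjusted p = 0.93) and Fbxl5, the ubiquitin ligase subunit that removes IRP2, of 0.06 (limma adjusted p = 0.56). The sign for Ireb2 turned under other scalings. Aco1 was called higher in 6 of 14 alternatives: DESeq2, TPM, median-of-ratios scaling, plain CPM, without WC1 1 (adjusted p = 0.042) and without WC1 2 (adjusted p = 0.032), and over the 14 alternatives its adjusted p ran from 0.0088 to 0.36. In the hepcidin pathway, Hfe, which binds the transferrin receptors, rose from 104 and 111 CPM in Ctrl to 142 and 177 CPM in WC1 (log2 difference 0.56 ± 0.12, SE, limma adjusted p = 0.041). Bmp6, the ligand that induces hepcidin, rose from 8.06 and 9.30 CPM to 13.5 and 16.9 CPM (log2 difference 0.74 ± 0.14, SE, limma adjusted p = 0.034). Hamp, hepcidin itself, was between 0.03 and 0.08 CPM and too low to test, Hamp2 was at 0, and Hjv and Tmprss6 were also under the filter.

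Of the transcriptional regulators of Hmox1, ferritin and ferroportin genes, 3 of 7 fell and none rose, where 7.71% of all tested genes fell and 10.2% rose, and all 3 calls were lost without Ctrl 1 and without Ctrl 2. Mafg, a small Maf partner of NRF2 and BACH1, fell by 0.67 (SE 0.082, limma adjusted p = 0.017), from 34.9 and 36.3 CPM in Ctrl to 22.9 and 21.05 CPM in WC1. Bach1, the heme-binding repressor of Hmox1, fell by 0.51 (SE 0.12, limma adjusted p = 0.047), from 96.2 and 90.4 CPM to 72.7 and 58.4 CPM. Nfe2l2, which encodes NRF2, the activator, fell by 0.35 (SE 0.080, limma adjusted p = 0.045), from 193 and 203 CPM to 162 and 148 CPM. The repressor and the activator thus fell together, although Bach1 and Nfe2l2 were not called on TPM, on plain CPM, in edgeR or without the filter. Spic, the factor of iron-recycling macrophages, was not called (log2 difference 0.27, limma adjusted p = 0.24). The core TGACNNNGC of the element bound by NRF2 and BACH1, searched on both strands from 250 bases before to 50 after the start site (RefSeq, GRCm38.p6), was in 0 of the 7 members with a promoter entry and in 14% of 27025 genes. This says only that these letters were not in this window, and no entry was used for Hmox1, Slc40a1 and Slc48a1.

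Iron-sulphur cluster assembly, which consumes iron in mitochondria and cytosol, had 1 call. Of 21 genes tested 0 rose and 1 fell (4.76%, beside 7.71% of all tested genes), Ciao2a (listed as Fam96a), from 93.3 and 79.7 CPM in Ctrl to 61.2 and 51.9 CPM in WC1 (log2 difference -0.60 ± 0.12, SE, limma adjusted p = 0.035). Isca2, a late-acting assembly factor, had a log2 difference of 0.32 (limma adjusted p = 0.088), and 2 of 14 alternatives called it.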

How the data were processed

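Poly(A) RNA of epididymal adipose tissue was sequenced as directional libraries. The submitters' processing notes name fastp, HISAT2, StringTie and the build mm10. For the read counter and the annotation, the sources used here give no name. The first deposited matrix, written here as CPM, is a signal that the authors made by dividing reads by a rescaled library size, and its columns sum to between 97.6% and 105% of plain CPM. Whole reads were recovered from it, 100% of the values being whole to within 0.01 read. The second deposited matrix holds TPM, which the authors corrected for transcript length.

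Groups and library numbers came from the sample titles, and 0 columns of other samples were present. A gene was tested if 2 or more libraries reached 0.5 CPM, which kept 14106 of 24421, since the study left out lower genes. Values were taken as log2(CPM + 1), which understates the change of low genes, and limma 3.58.1 (R 4.3.3) compared WC1 with Ctrl (trended variance, two-sided, Benjamini-Hochberg over all tested genes, threshold 0.05). Errors are SE of log2 differences and SD of 2 libraries. At these depths 3 reads equal 0.0345 to 0.0492 CPM, and this covers counting error only; the number of libraries, not the depth, limits the precision. No library was a copy of its replicate: chi-square over degrees of freedom was 33.9 for Ctrl and 83.7 for WC1.

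The members and the gene lists were chosen with earlier results of these data known. Named were all members, the 2 genes with the smallest p in each list, a set written by name (Hmox2, Blvra, Slc11a2, Steap4, Cp, Heph, Ncoa4, Aco1, Ireb2, Fbxl5, Hfe, Bach1, Spic, Hpx, Lrp1, Lcn2, Alas1 and Fech), and listed genes under the filter with their level. Some genes that the rule names are not reported here. Of 145 listed symbols 143 matched a row, older symbols included; Ahsp and Ly6g were not used here. Alternatives were edgeR 4.0.16 and DESeq2 1.42.0 on the recovered reads (edgeR called 1476 genes higher and 1007 lower, against 1443 and 1088 in limma), TPM, other scalings, pseudocounts and filters, a replicate block, and each library left out. The code was tested on simulated data. Hairpins and gene positions were read from GENCODE M21 on GRCm38, and promoters from RefSeq on GRCm38.p6.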

Additional observations from a re-analysis of the deposited data

How the results depend on the processing

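All 10 members kept their direction in every alternative run. Of 141 values, 129 moved by less than the spread between replicates and 12 by more. The changed filters and the replicate block could not move these values, since they left each log2 difference as it was. Leaving out a library could not turn a direction either, since the groups do not overlap in any member. Leaving out a library moved the members' median of -1.12 to between -1.29 and -1.03. Of the other iron and heme genes, 7 were called higher and 6 lower. The number higher was 11 on TPM and 1 with no filter, and lay between 0 and 17 when a library was left out. The number lower was 11 in DESeq2, 2 on TPM, 2 with no filter and 3 on plain CPM, and lay between 0 and 19 when a library was left out. Over all genes, 1443 were higher and 1088 lower; with no filter these were 788 and 532, and with a library left out 2 to 2424 and 4 to 2748. The lower count was 1736 in DESeq2 and 583 on TPM, where the median of all genes shifted by 0.12 to 0.10. Lcn2 turned to 0.049 on TPM, and lay between -0.41 and 0.24 with a library left out. Ireb2 turned to 0.0088 in DESeq2, 0.12 on TPM, 0.0087 in edgeR, 0.0031 with median-of-ratios scaling, 0.064 on plain CPM, and lay between -0.062 and 0.042 with a library left out. The causes were not tested. Of 376 values of named other genes, 301 kept their direction and their side of the threshold, called or not, 42 lost a call (24 with a library left out), 25 gained one and 8 turned sign.

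Libraries of the groups share the numbers 1 and 2, but the labels do not say what a number marks, and 2 pairs are too few to show pairing (the differences between libraries 1 and 2 correlated across genes with r = 0.19). With the replicate block, 9 of the other genes were higher and 9 lower, and over all genes 1769 were higher and 1497 lower.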

Other observations

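The hairpin pattern of the ferritin and ferroportin mRNAs was also found in the 5′ UTR of genes outside the set. Among the genes tested, 21 had such a match, 3 of them members. Of the other 18, 8 had a lower mean in WC1 and 10 a higher one, with a median log2 difference of 0.05 and a range from -0.47 to 1.08. The 3 members lay between -2.51 and -1.21, and they belong to a set chosen on this same contrast, so nothing is read from the gap. Alas2, whose hairpin spans a splice junction on the X chromosome (GRCm38, loop in capitals: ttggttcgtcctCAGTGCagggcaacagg), had 4.56 and 3.37 CPM in Ctrl and 5.92 and 6.66 CPM in WC1. No test was run on this group.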
